A study of Homo sapiens with 10 samples.

Results

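Metallothioneins and the genes of the cellular zinc response were followed in U2OS cells, a human osteosarcoma line. The set was named by symbol and held 9 genes of the 63187 in the count table. These were the metallothionein genes MT2A, MT1A, MT1E, MT1F, MT1G, MT1M and MT1X, the zinc-sensing transcription factor gene MTF1 and the zinc exporter gene SLC30A1. RNA-seq was available for heat-shocked cells with YTHDC1 knockdown, heat-shocked control cells and unheated control cells, with 2 libraries in each of the 3 groups. All the cells carried a silencing reagent, directed at YTHDC1 or a control one, which the sample titles call sh and the column names call si. YTHDC1 is a nuclear protein that binds N6-methyladenosine (m6A) in RNA. The sources used here do not give the temperature or length of the heat shock, any recovery time or the number of YTHDC1 sequences targeted. The labels do not state whether the 2 libraries of a group are separate cultures. The p-values therefore reflect library-to-library spread, which may be technical. The 4 m6A immunoprecipitation and input samples were not analysed here, and no m6A level is reported. All levels below are of RNA, and protein, MTF1 activity and free zinc were not measured in these libraries.

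Metallothioneins are small cysteine-rich proteins that bind zinc and copper, and also toxic metals such as cadmium. When free zinc rises, MTF1 binds metal response elements in the promoters of metallothionein genes and of SLC30A1 and raises their transcription. The metallothioneins then hold the metal, and SLC30A1, also called ZnT1, exports zinc across the plasma membrane. In humans the functional metallothionein genes lie in a cluster on chromosome 16, where MT2A is usually the most abundant.

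Libraries held 13252370 to 15500743 counts, and 17290 genes passed the filter on low counts. Levels are given as CPM, counts relative to the total of the library after TMM scaling for its composition, with the SD of 2 libraries. Levels between genes are compared only as CPM per kilobase of the deposited gene length. A gene was called higher or lower when the edgeR quasi-likelihood test gave an adjusted p (Benjamini-Hochberg, over all 17290 genes) under 0.05. YTHDC1 was at 121 and 118 CPM in the knockdown against 268 and 258 CPM in heat-shocked controls, with 213 and 225 CPM in unheated controls. The mesenchymal markers VIM, SPARC, COL1A1 and FN1 were abundant, while COL1A2 did not exceed 2.25 CPM and BGLAP, a marker of mature osteoblasts, did not exceed 0.0717 CPM. TERT did not exceed 0.281 CPM, and blood cell markers summed to at most 6.52 CPM per library, with CD3E and HBB at 0.

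6 of the 9 genes passed the filter on low counts. The other 3 were MT1A, MT1F and MT1M. MT1A had 0 counts in every library. MT1F and MT1M each had 1 count, in knockdown replicate 1. A count of 0 allows a level of up to 0.189 to 0.231 CPM, depending on the library (3 counts, counting error only). No fold change is given for these genes. The count table held 22 rows of metallothionein genes and pseudogenes in all, of which 11 were at 0 in every library and 5 had between 1 and 9 counts over all libraries. Metallothionein copies are close in sequence, and how multi-mapping reads were handled is unknown. Values of single copies are therefore uncertain, and the 0 values may include reads that were not assigned.

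The promoters of MT2A, MT1X, SLC30A1 and MTF1 are shown because the sensor MTF1 acts through short metal response elements. They are the 250 bases before the annotated transcript start, 5′ to 3′ on the strand of the gene, from RefSeq on GRCh38.p14. Only these 4 of the 9 genes had a promoter in the table used. Capitals mark the core of a metal response element, searched as TGCACNC or TGCGCNC on both strands.
MT2A, chr16:56608334-56608583, plus strand: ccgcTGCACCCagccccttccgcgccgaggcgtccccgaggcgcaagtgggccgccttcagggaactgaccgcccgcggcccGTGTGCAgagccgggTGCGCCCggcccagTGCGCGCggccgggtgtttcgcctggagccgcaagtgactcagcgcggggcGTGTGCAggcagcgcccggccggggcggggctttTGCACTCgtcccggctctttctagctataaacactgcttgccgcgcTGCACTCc
MT1X, chr16:56682220-56682469, plus strand: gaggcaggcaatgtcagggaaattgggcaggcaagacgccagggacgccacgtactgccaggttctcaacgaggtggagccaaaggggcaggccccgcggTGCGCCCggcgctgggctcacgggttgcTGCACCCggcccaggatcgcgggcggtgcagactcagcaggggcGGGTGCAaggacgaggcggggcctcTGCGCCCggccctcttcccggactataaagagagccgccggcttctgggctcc
SLC30A1, chr1:211579162-211579411, minus strand: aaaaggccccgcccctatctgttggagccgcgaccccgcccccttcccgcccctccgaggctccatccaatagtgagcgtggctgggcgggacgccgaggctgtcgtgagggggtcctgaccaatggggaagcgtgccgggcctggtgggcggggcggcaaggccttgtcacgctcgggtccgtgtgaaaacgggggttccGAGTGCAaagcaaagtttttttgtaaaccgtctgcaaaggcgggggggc
MTF1, chr1:37859593-37859842, minus strand: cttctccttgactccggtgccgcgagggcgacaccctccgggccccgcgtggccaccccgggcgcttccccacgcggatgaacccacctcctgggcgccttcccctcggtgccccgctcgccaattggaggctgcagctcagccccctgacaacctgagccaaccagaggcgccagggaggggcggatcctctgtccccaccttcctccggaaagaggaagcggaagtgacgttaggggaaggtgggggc

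The MT2A window held 7 matches to the metal response element core, the MT1X window 4, the SLC30A1 window 1 and the MTF1 window 0. Of 35116 promoter windows of the same length, 24.8% held at least 1 match and 0.12% held at least 5. The TATA box, TATAAA, began 29 bases before the start of MT2A and 30 bases before that of MT1X, and 10.7% of all windows held one. The antioxidant element TGACNNNGC had 1 match each in MT2A, MT1X and SLC30A1, against 10.9% of all windows with a match. Neither the heat shock element, searched as GAANNTTC or TTCNNGAA (11.6% of all windows), nor the glucocorticoid receptor hexamer AGAACA (12.4%) had a match in the 4 windows. No motif match overlapped another one. A match is a description of the letters and does not show binding, and no match says only that these letters are not in the window.

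**Figure D1:**
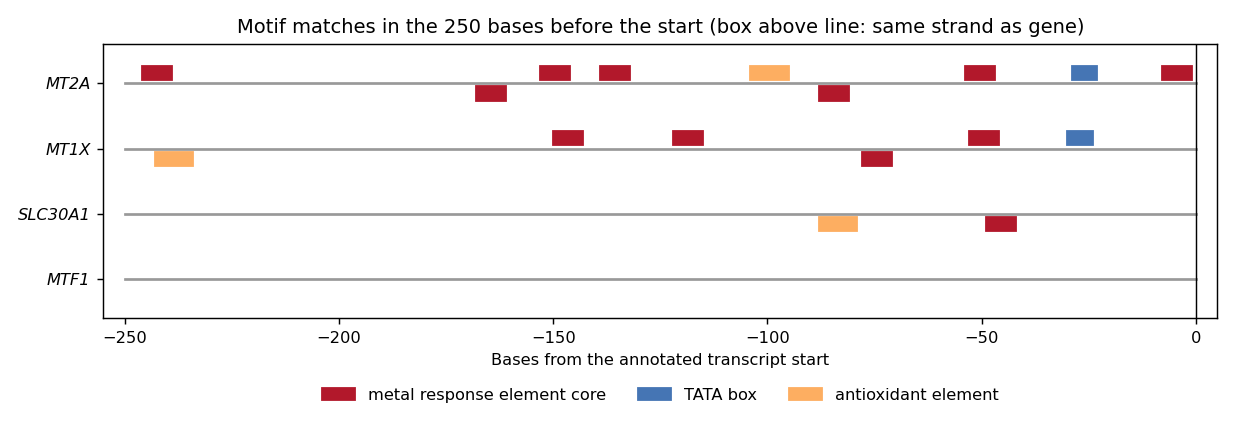
Motif matches in the 250 bases before the annotated start of MT2A, MT1X, SLC30A1 and MTF1, drawn by distance from the start in bases, with boxes above the line on the strand of the gene and boxes below it on the other strand. The 7 metal response element cores of MT2A spread over the window, SLC30A1 has 1 and MTF1 has none.

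Heat shock in control cells raised the RNA of the sensor gene MTF1 about 2-fold and lowered that of the exporter gene SLC30A1. The RNA of the main metallothionein gene, MT2A, rose by a small amount. Of the 5 genes that averaged 10 counts or more in both groups, 2 rose, 1 fell and 2 did not pass. Of all 17290 genes 43.9% were called, 20.6% higher and 23.3% lower, or 44.9% of those that met the same minimum. Over all genes 46.9% of the calls were higher, or 36.5% when libraries were scaled by their size alone. The median log2 fold change was -0.11 over the 6 genes that passed the filter, 0.12 over the 5 without MT1G, and -0.03 over all genes. MT1G averaged under 10 counts in heat-shocked controls and passed the filter only through its counts in the other groups, so no fold change or test is given for it against that group.

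MTF1 (ENSG00000188786, chromosome 1, 37809574 to 37859592 on GRCh38) stood at 70.0 and 68.1 CPM in heat-shocked controls, against 34.8 and 33.9 CPM in unheated controls. The groups did not overlap, and the rise was 2.01-fold (log2 fold change 1.01 with an SE of 0.06, given as ± below, 2 libraries per group, edgeR adjusted p = 3.18e-12). By size it ranked 1002 of the 3559 genes called higher. The span of MTF1 also holds the pseudogene RPS2P13, and whether counting used strand is not given.

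SLC30A1 (ENSG00000170385, chromosome 1, 211571568 to 211579161) stood at 35.2 and 35.5 CPM in heat-shocked controls, against 57.5 and 54.6 CPM in unheated controls. Both heated libraries were below both unheated ones, and the level fell to 63.1% (log2 fold change -0.66 ± 0.07, edgeR adjusted p = 1.39e-08). In RNA level the factor gene and its exporter target thus moved in opposite directions, and whether MTF1 activity changed was not tested. The ratio of SLC30A1 to MTF1, in CPM per kilobase, was 0.682 and 0.708 in heat-shocked controls, against 2.24 and 2.19 in unheated controls.

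MT2A (ENSG00000125148, chromosome 16, 56608584 to 56609497) stood at 171 and 174 CPM in heat-shocked controls, against 142 and 146 CPM in unheated controls. The groups did not overlap, and the rise was 1.2-fold (log2 fold change 0.26 ± 0.05, edgeR adjusted p = 0.000303). MT1E (ENSG00000169715, chromosome 16, 56625781 to 56627112) stood at 88.1 and 92.7 CPM in heat-shocked controls, against 82.4 and 84.4 CPM in unheated controls. Its log2 fold change of 0.12 did not pass (95% interval -0.02 to 0.25, adjusted p = 0.15), though it did in the fit of only these 2 groups (0.15, adjusted p = 0.013).

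MT1X and MT1G were scarce. MT1X (ENSG00000187193, chromosome 16, 56682470 to 56684196) was at 4.31 and 3.87 CPM in heat-shocked controls, against 5.61 and 4.69 CPM in unheated controls (log2 fold change -0.34, 95% interval -0.78 to 0.11, adjusted p = 0.222). MT1G (ENSG00000125144, chromosome 16, 56666730 to 56668065) had 6 and 5 counts in heat-shocked controls, against 15 and 7 in unheated controls. For MT1X the interval is too wide to tell a small change from none, and for MT1G 1 unheated library lies close to the heated ones.

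YTHDC1 knockdown in heat-shocked cells lowered MT2A 2.76-fold and raised SLC30A1 2.17-fold. Of the 5 genes that averaged 10 counts or more in both groups, 2 rose (SLC30A1 and MTF1), 2 fell (MT2A and MT1E) and MT1X did not pass. Over all genes 54.5% were called, 27.4% higher and 27.2% lower, or 56.1% of those that met the same minimum. The 4 of 5 is a description of these genes only, and MT1G, which the edgeR fit also called, is left out of it for its low counts.

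MT2A was at 58.0 and 67.1 CPM in knockdown cells, against 171 and 174 CPM in heat-shocked controls. Both knockdown libraries were far below both controls, at 36.3% of their level (log2 fold change -1.46 ± 0.06, edgeR adjusted p = 9.12e-16). The fall ranked 545 by size among the 4696 genes called lower. MT1E was at 64.7 and 77.2 CPM in knockdown cells, against 88.1 and 92.7 CPM in heat-shocked controls. Its groups did not overlap either, but it kept 78.5% of the control level (log2 fold change -0.35 ± 0.07, edgeR adjusted p = 1e-04). The 95% intervals of the log2 fold changes were -1.59 to -1.34 for MT2A and -0.49 to -0.21 for MT1E, and they did not overlap.

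MT2A and MT1E together held most of the metallothionein counts, and the share of MT2A was lower in the knockdown. The shares are of counts, not corrected for gene length, and are compared between groups only. MT2A held 46% and 44.6% of the summed metallothionein counts in knockdown cells, against 64.5% and 64% in heat-shocked controls, with 61.1% and 61.7% in unheated controls. MT1E held 51.3% in both knockdown libraries, against 33.2% and 34.1% in heat-shocked controls. The ratio of MT2A to MT1E, in CPM per kilobase, was 1.03 and 1 in knockdown cells, against 2.23 and 2.16 in heat-shocked controls, with 1.98 and 2 in unheated controls. Per length the 2 genes were thus about level in knockdown cells, and MT2A was the higher one in all 4 control libraries. The deposited length of MT2A, 914 bases, equals its whole span, while that of MT1E, 1052 bases, is shorter than its span. Levels per kilobase between genes, and a ratio near 1, therefore depend on the annotated lengths. An exact two-sided permutation test of 2 against 2 libraries cannot give less than p = 0.333, which is what it gave for this ratio.

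**Figure D2:**
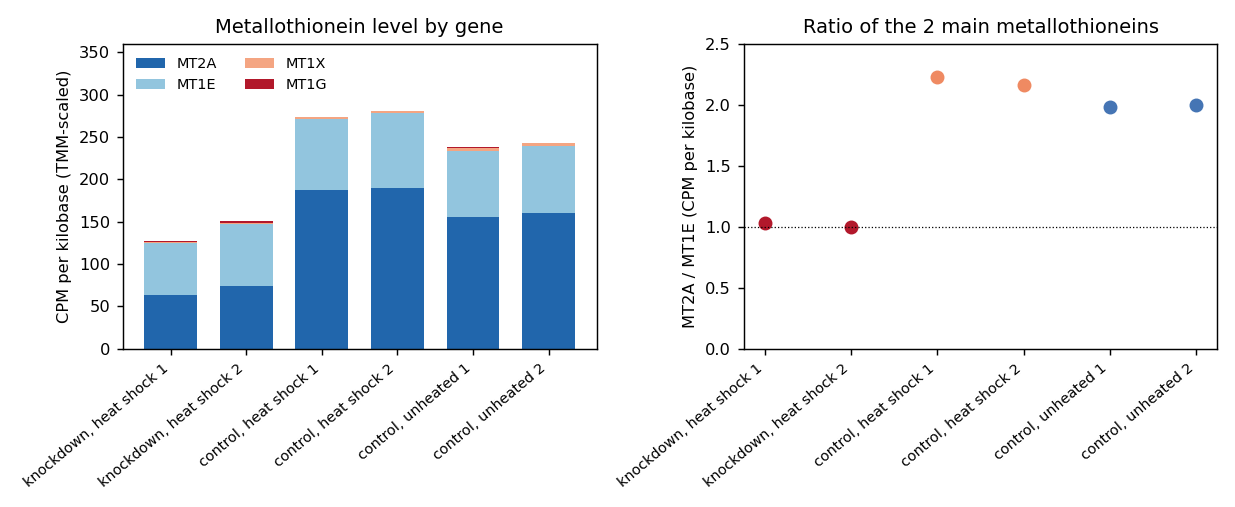
Left, TMM-scaled CPM per kilobase of gene length of MT2A, MT1E, MT1X and MT1G stacked for each of the 6 libraries. Right, the level of MT2A divided by that of MT1E, both per kilobase, in the same libraries, with a dotted line at 1: the knockdown libraries are at 1.03 and 1 and the control libraries between 1.98 and 2.23.

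Per kilobase of gene length, MT2A was at 68.4 ± 6.99 and MT1E at 67.4 ± 8.36 CPM per kilobase in knockdown cells (SD, n = 2), a difference within the spread. In heat-shocked controls MT2A was at 189 ± 2.59 and MT1E at 85.9 ± 3.15 CPM per kilobase. In unheated controls MT2A was at 158 ± 3.68 and MT1E at 79.3 ± 1.37 CPM per kilobase. The order from there down was SLC30A1, MTF1, then MT1X and MT1G in knockdown cells, with SLC30A1 at 13.0 ± 0.295 and MTF1 at 10.0 ± 0.206 CPM per kilobase. MT1X at 1.7 ± 0.674 and MT1G at 1.72 ± 0.579 did not differ beyond their spread. In heat-shocked controls MTF1, at 8.64 ± 0.168, stood above SLC30A1, at 6.0 ± 0.039 CPM per kilobase. In unheated controls the order was the other way round, with SLC30A1 at 9.51 ± 0.35 and MTF1 at 4.3 ± 0.0849.

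With the 22 metallothionein rows summed, so that reads assigned to one copy or another count alike but reads left unassigned are still missing, the level was 126 and 151 CPM in knockdown cells, against 265 and 272 CPM in heat-shocked controls, with 232 and 237 CPM in unheated controls. The sum fell 1.94-fold with knockdown (log2 fold change -0.96 ± 0.06, edgeR adjusted p = 3.83e-11). In heat shock the sum rose by 0.20 ± 0.06 on the log2 scale (edgeR adjusted p = 0.00905). With library size alone as the scaling that last call was lost (0.12, adjusted p = 0.0941).

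MT2P1, a pseudogene of MT2A on chromosome 4, was the only tested row among the 15 other metallothionein genes and pseudogenes. It was at 0.141 and 0.626 CPM in knockdown cells, against 1.08 and 0.645 CPM in heat-shocked controls, with 1.14 and 1.16 CPM in unheated controls. These levels rest on 2 and 9 counts in knockdown cells, 14 and 9 in heat-shocked controls and 18 in each unheated library. It passed the filter only through the control groups, so no fold change is given for the knockdown. Reads from MT2A and from this copy may not be told apart.

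MT1X was at 2.11 and 3.76 CPM in knockdown cells, against 4.31 and 3.87 CPM in heat-shocked controls. The log2 fold change of -0.47 did not pass (95% interval -0.98 to 0.03, adjusted p = 0.104), and it moved with single libraries. Without knockdown replicate 2 it was -0.95 (adjusted p = 0.00502) and without knockdown replicate 1 it was -0.12 (adjusted p = 0.722). MT1G was at 0.985 and 1.6 CPM in knockdown cells, against 0.461 and 0.358 CPM in heat-shocked controls. These levels rest on 14 and 23 counts in knockdown cells and 6 and 5 in heat-shocked controls. Both knockdown libraries held more counts than both heat-shocked controls, at a depth too low for a fold change.

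SLC30A1 was at 78.1 and 75.6 CPM in knockdown cells, against 35.2 and 35.5 CPM in heat-shocked controls (log2 fold change 1.12 ± 0.06, edgeR adjusted p = 5.39e-13). The groups were far apart, and the rise ranked 888 by size among the 4729 genes called higher. MTF1 was at 79.1 and 81.4 CPM in knockdown cells, against 70.0 and 68.1 CPM in heat-shocked controls. It rose 1.16-fold without overlap of the groups (log2 fold change 0.22 ± 0.06, edgeR adjusted p = 0.00256). The ratio of SLC30A1 to MTF1, in CPM per kilobase, was 1.34 and 1.26 in knockdown cells, against 0.682 and 0.708 in heat-shocked controls.

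**Figure D3:**
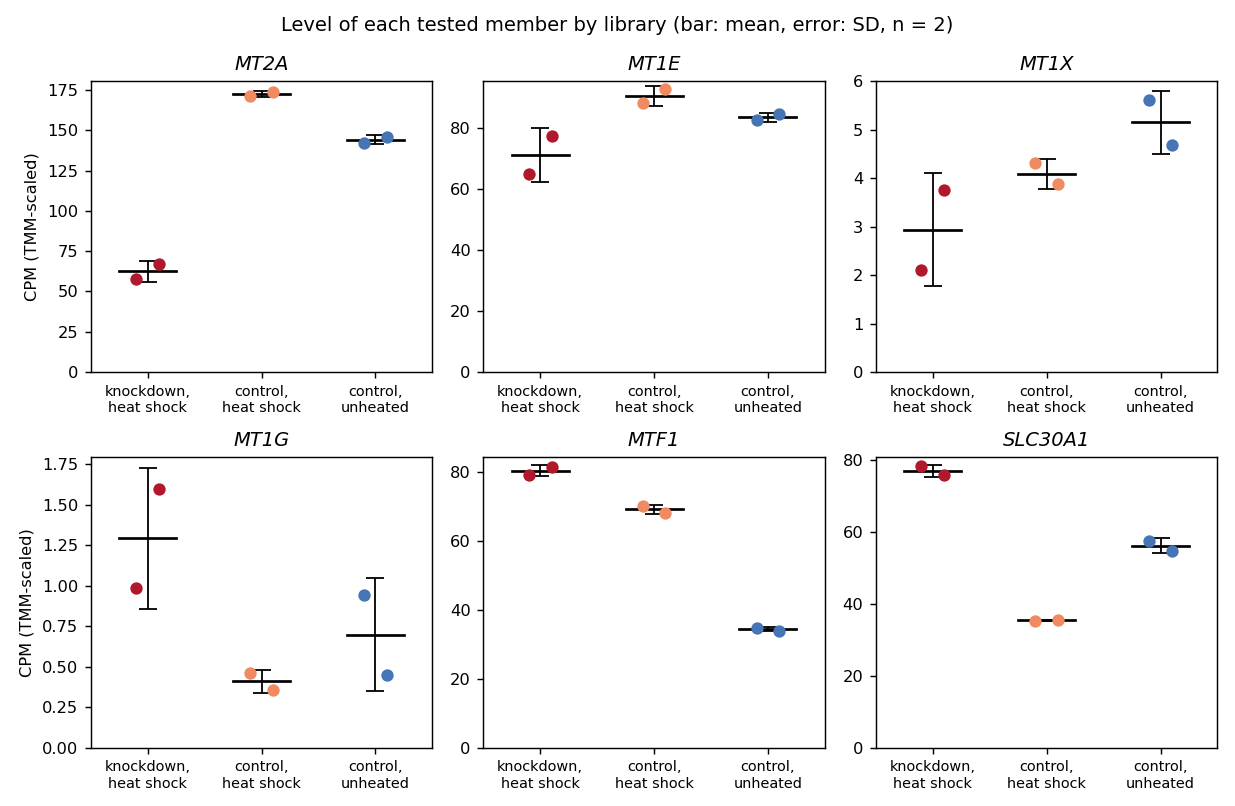
TMM-scaled CPM of the 6 tested genes in each library (points), with the mean and SD of 2 libraries per group, each panel on its own scale from 0. MT2A is lowest in knockdown cells, MTF1 is lowest in unheated controls and SLC30A1 is lowest in heat-shocked controls.

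Heat-shocked knockdown cells also differed from unheated controls, a comparison that shares its libraries with the other comparisons. It changes heat and knockdown together, and no unheated knockdown cells were sequenced, so their parts in it cannot be told apart. For the same reason it is not known whether the knockdown differences above are particular to heat-shocked cells. MT2A, MT1E and MT1X were lower and MTF1 and SLC30A1 higher, so that 5 of 6 passed, against 62.2% of all genes called, 31.1% higher and 31.1% lower, or 62.7% of those averaging 10 counts or more in both groups. Whether MT1E and MT1X passed depended on single libraries, as given below. MT2A stood at 43.4% of the unheated level (log2 fold change -1.20 ± 0.06, edgeR adjusted p = 1.42e-14) and MTF1 at 2.34-fold (1.22 ± 0.06, adjusted p = 2.56e-14). SLC30A1 was 1.37-fold above it (0.45 ± 0.06, adjusted p = 4.02e-07).

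The order of the 3 groups therefore differed between the genes. For MT2A it was heat-shocked control, unheated control, heat-shocked knockdown, from high to low, and each neighbouring pair passed the test. For MTF1 it was heat-shocked knockdown, heat-shocked control, unheated control, again with each pair past the test. For SLC30A1 it was heat-shocked knockdown, unheated control, heat-shocked control, with each pair past the test. MT1E followed the order of MT2A, but its heat-shocked and unheated controls did not pass.

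The calls of MT1E and MT1X against unheated controls depended on 1 library. MT1E (log2 fold change -0.23 ± 0.07, adjusted p = 0.00382) was not called without knockdown replicate 1 (-0.12, adjusted p = 0.105). MT1X (-0.81 ± 0.23, adjusted p = 0.00358) was likewise not called without that library (-0.46, adjusted p = 0.0985). MT1G was not called (0.88, 95% interval -0.02 to 1.78, adjusted p = 0.0833). Its log2 fold change was 1.18 without knockdown replicate 1 and 1.5 without unheated replicate 1. The latter fit rests on 1 unheated library with 7 counts, too few for a test.

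**Figure D4:**
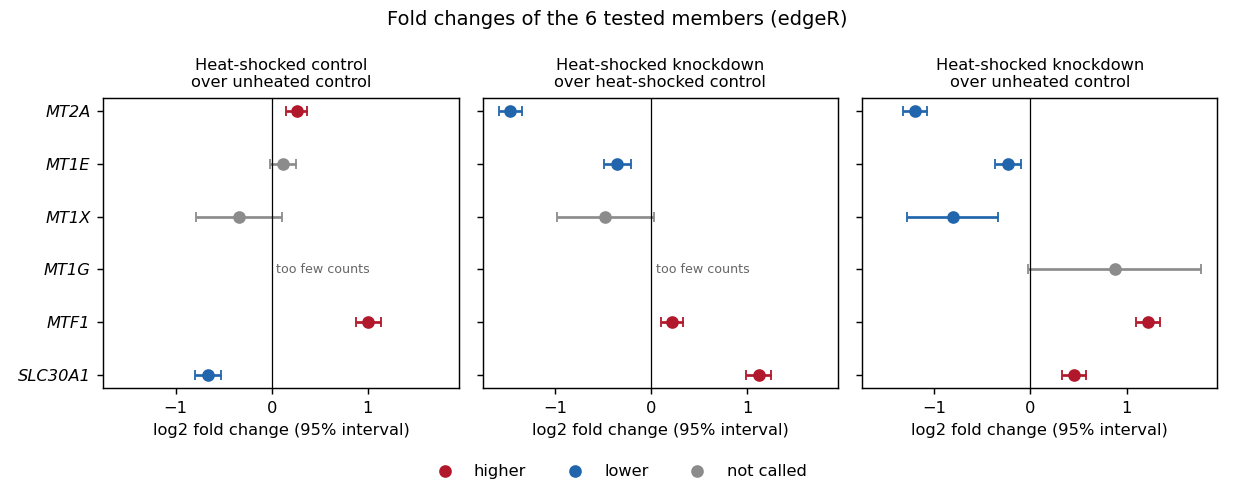
Log2 fold changes with 95% intervals from edgeR for the 6 tested genes, in heat-shocked over unheated controls (left), heat-shocked knockdown over heat-shocked controls (middle) and heat-shocked knockdown over unheated controls (right). SLC30A1 lies at -0.66 in the left panel and at 1.12 in the middle one, and MT1G is drawn only where both groups averaged 10 counts or more, in the right panel.

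The other zinc transporters moved in both directions. Most transporters of the SLC30 family, and TMEM163, move zinc out of the cytosol, and all are listed here as exporters. Importers of the SLC39 (ZIP) family move it in, from outside the cell or from its compartments. In heat shock, where 43.9% of all genes were called, 1 of 6 tested exporters beside SLC30A1 and TMEM163 rose and 1 fell, with a median log2 fold change of 0.01. Of 11 tested importers 2 rose and 3 fell, with a median of -0.10. In the knockdown, where 54.5% of all genes were called, 1 of 7 exporters rose and 1 fell (median -0.10), and 4 of 11 importers rose and 2 fell (median 0.15). The medians over all genes were -0.03 in heat shock and -0.004 in the knockdown, and 3 listed genes of each family were too low to test.

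TMEM163 stood at 2.92 and 1.86 CPM in heat-shocked controls, against 0.315 and 0.257 CPM in unheated controls. It had 38 and 26 counts in heat-shocked controls, against 5 and 4 in unheated controls, and passed the filter only through the heated groups, so no fold change is given. The calls of SLC30A7, which loads zinc into the Golgi (0.19, edgeR adjusted p = 0.0463), and of SLC30A9, a mitochondrial zinc transporter (-0.20, adjusted p = 0.00953), were small. That of SLC30A7 was lost in 8 of 15 alternatives, among them the loss of any 1 of the heat-shocked or unheated control libraries (adjusted p = 0.0807 to 0.218). That of SLC30A9 was lost without heat-shocked control replicate 2 (adjusted p = 0.0623), without unheated replicate 2 (0.0672) and with the DESeq2 Wald test (0.114). SLC30A1 passed under every alternative run.

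In the knockdown SLC30A4, which loads zinc into vesicles, stood at 10.4 and 9.74 CPM, against 5.69 and 6.74 CPM in heat-shocked controls (log2 fold change 0.69, edgeR adjusted p = 0.00038). SLC30A7 stood at 23.2 and 25.1 CPM, against 35.8 and 37.3 CPM (-0.60, adjusted p = 1.1e-06). For both genes the groups did not overlap. SLC30A1 thus had the largest knockdown rise of the 8 tested exporters.

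Of the importers, SLC39A7, which releases zinc from the endoplasmic reticulum, was at 225 and 220 CPM in knockdown cells, against 134 and 122 CPM in heat-shocked controls, with 156 and 160 CPM in unheated controls. Like SLC30A1 it fell with heat (log2 fold change -0.31, edgeR adjusted p = 2.87e-05) and was higher in the knockdown (0.80, adjusted p = 2.65e-12). SLC39A13 did the same (-0.43 with heat, adjusted p = 3.9e-05, and 0.56 with knockdown, adjusted p = 5.33e-07). SLC39A6, a plasma membrane importer, rose with heat and fell with knockdown (0.59, adjusted p = 8.04e-09, and -0.41, adjusted p = 1.63e-06). Both comparisons use the heat-shocked control libraries, so opposite signs between them are not independent.

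SLC39A8, which carries zinc, manganese and cadmium, rose in the knockdown (0.62, edgeR adjusted p = 4.66e-06) and SLC39A9 fell (-0.24, adjusted p = 0.000921). SLC39A3 was called higher (0.48, adjusted p = 0.00976), a call that was lost without heat-shocked control replicate 1 (0.23, adjusted p = 0.263). In heat shock SLC39A14, a carrier of zinc and iron, rose (0.35, adjusted p = 7.33e-07) and SLC39A11 fell (-0.36, adjusted p = 0.00387). The call of SLC39A11 was lost with the DESeq2 Wald test (-0.35, adjusted p = 0.0675). Per kilobase, SLC39A7 at 55.6 ± 0.99, SLC39A14 at 42.9 ± 1.23 and SLC39A6 at 20.2 ± 0.977 CPM per kilobase were above SLC30A1 in knockdown cells, the only tested transporters to be so. SLC39A13, at 12.8 ± 0.381, did not differ from SLC30A1, at 13.0 ± 0.295, beyond the spread.

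**Figure D5:**
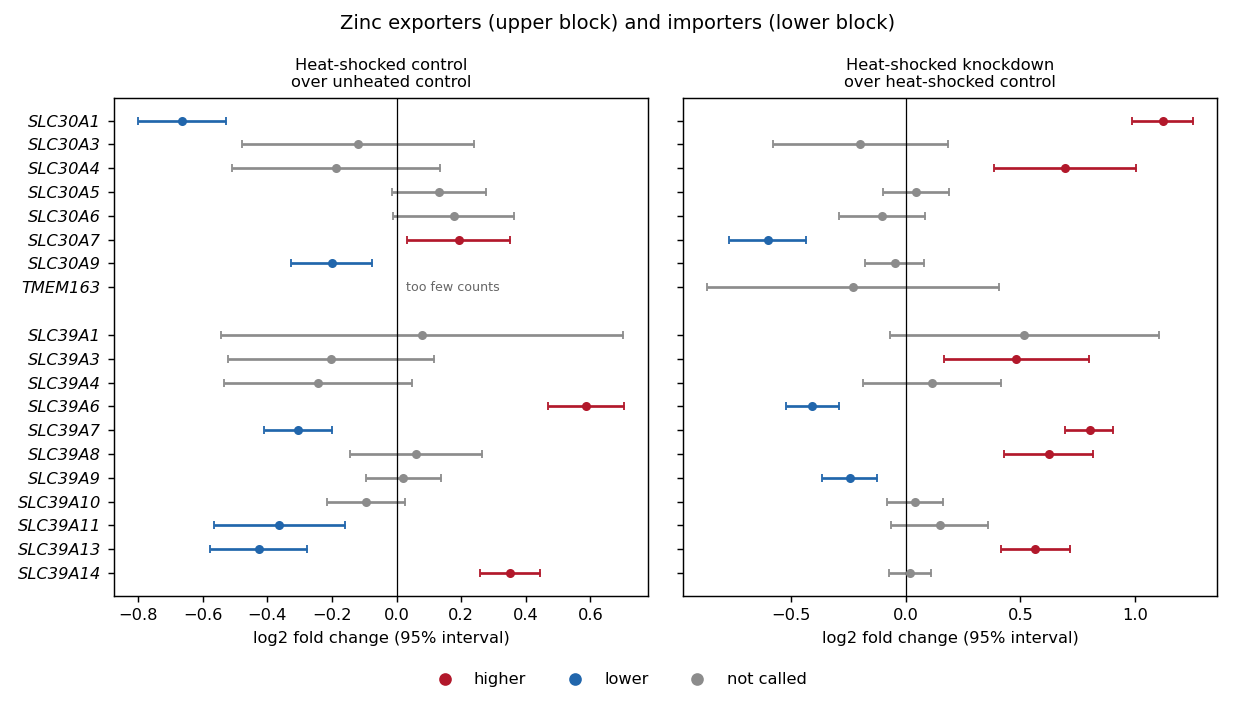
Log2 fold changes with 95% intervals from edgeR for SLC30A1 and the other tested zinc exporters (upper block) and for the tested importers (lower block), in heat-shocked over unheated controls (left) and heat-shocked knockdown over heat-shocked controls (right), on separate scales. SLC30A1 has the lowest heat-shock value at -0.66 and the largest knockdown value at 1.12, and TMEM163 is not drawn on the left for its low counts in unheated controls.

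Copper shares the metallothioneins as a ligand, and its handling genes were followed for that reason. Of 12 tested, 3 rose and 4 fell in heat shock (median log2 fold change -0.04), where 43.9% of all genes were called. In the knockdown, with 54.5% of all genes called, 4 rose and 2 fell (median 0.05). The knockdown count is near its share. The heat-shock count, 7 of 12, is above its share. It was 4 with the DESeq2 Wald test. The count over all genes also varied, from 7592 in the main fit to as few as 5161 in an alternative. The 4 therefore cannot be set against 43.9%. SOD1, an enzyme that holds both copper and zinc, rose with heat to 753 and 729 CPM in heat-shocked controls, against 455 and 454 CPM in unheated controls (0.71, edgeR adjusted p = 1.65e-12). SCO2, which delivers copper to cytochrome oxidase, fell with heat (-0.91, adjusted p = 3.76e-05). SLC31A2 also rose with heat (0.68, adjusted p = 0.00126), and STEAP3, a metal reductase, fell (-0.29, adjusted p = 2.17e-05). The heat-shock calls of SCO1 (0.17), of the copper pump ATP7B (-0.33) and of the importer SLC31A1 (-0.24) were each lost without any 1 of the heat-shocked or unheated control libraries. In the knockdown COMMD1 (0.48, edgeR adjusted p = 0.000119), SCO2 (0.47, adjusted p = 0.0187), SLC31A1 (0.38, adjusted p = 0.00198) and COX17 (0.35, adjusted p = 0.000647) were higher. ATP7B (-0.42, adjusted p = 0.012) and STEAP3 (-0.28, adjusted p = 3.22e-05) were lower. Without heat-shocked control replicate 1 neither SCO2 (0.25, adjusted p = 0.286) nor ATP7B (-0.40, adjusted p = 0.0578) was called. SCO2 was also lost without knockdown replicate 2 (0.39, adjusted p = 0.0842), and ATP7B without knockdown replicate 1 (-0.35, adjusted p = 0.0765). The heat-shock count was 4 rather than 7 without either heat-shocked control replicate or without unheated replicate 2.

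Glucocorticoids also induce MT2A, through the receptor encoded by NR3C1. Of 8 tested genes for the receptor and its known targets, 4 rose and 3 fell in heat shock (median 0.14), against 43.9% of all genes called. In the knockdown 3 rose and 2 fell (median -0.01), against 54.5%. DUSP1 (1.62, edgeR adjusted p = 3.12e-13) and TSC22D3 (1.30, adjusted p = 3.98e-09) rose with heat, as did ERRFI1 (0.31, adjusted p = 1.83e-05), while PER1 fell (-0.78, adjusted p = 1.18e-08). The heat-shock calls of NR3C1 (0.19), SGK1 (-0.51) and FKBP5 (-0.29) were lost without either heat-shocked control replicate or without unheated replicate 2, and those of NR3C1 and FKBP5 also without unheated replicate 1. In the knockdown, where MT2A fell, SGK1 rose (2.07, adjusted p = 3.83e-11), FKBP5 rose (0.51, adjusted p = 0.000143) and ERRFI1 fell (-0.65, adjusted p = 2.32e-10). NR3C1 (0.22, adjusted p = 0.00604) was higher, but not without knockdown replicate 1 (0.09, adjusted p = 0.253). KLF9 (-0.28, adjusted p = 0.00884) was lower, but not when knockdown replicate 2 (-0.23, adjusted p = 0.0668) or heat-shocked control replicate 1 (-0.24, adjusted p = 0.0671) was left out. The heat-shock count was 4 rather than 7 without either heat-shocked control replicate or without unheated replicate 2.

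Of 9 genes for other factors known at metallothionein promoters, 2 rose and 1 fell in heat shock (median -0.05), against 43.9% of all genes called. In the knockdown 4 rose and 4 fell (median 0), against 54.5%. In heat shock CREBBP, a coactivator, rose (0.46, edgeR adjusted p = 1.18e-08), NFE2L2, the factor of the antioxidant response, rose (0.24, adjusted p = 0.000399) and EP300 fell (-0.22, adjusted p = 0.000768). In the knockdown NFE2L2 (-0.55, adjusted p = 2.96e-09), USF1 (-0.39, adjusted p = 0.000259) and SP1 (-0.21, adjusted p = 0.000536) fell, while STAT3 (0.64, adjusted p = 2.98e-11) and HSF1 (0.27, adjusted p = 2.92e-05) rose. CREBBP rose as well (0.18, adjusted p = 0.00145). The knockdown calls of HIF1A (0.12, adjusted p = 0.0255) and EP300 (-0.12, adjusted p = 0.0386) were each lost when any of several single libraries was left out, with adjusted p up to 0.176 and 0.277. With library size alone as the scaling 7 rather than 3 of these genes were called in heat shock.

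Genes beside the metallothionein cluster on chromosome 16 did not share 1 direction. In heat shock 1 of 7 tested rose and 2 fell, against 43.9% of all genes called, and in the knockdown 2 rose and 3 fell, against 54.5%. With heat HERPUD1 rose (0.24, edgeR adjusted p = 0.000894) and OGFOD1 fell (-0.27, adjusted p = 0.00118). BBS2 fell too (-0.34, adjusted p = 0.0307), but not when heat-shocked control replicate 1 (-0.23, adjusted p = 0.26) or unheated replicate 2 (-0.25, adjusted p = 0.24) was left out. OGFOD1 (-0.71, edgeR adjusted p = 7.77e-09), NUDT21 (-0.64, adjusted p = 7.68e-07) and HERPUD1 (-0.58, adjusted p = 5e-09) fell in the knockdown, each by less than MT2A. GNAO1 rose (1.63, adjusted p = 4.19e-11), at 40.2 and 46.7 CPM in knockdown cells, against 11.7 and 16.2 CPM in heat-shocked controls. The call of NUP93 (0.14, adjusted p = 0.0267) was lost without any 1 library other than knockdown replicate 1, with adjusted p up to 0.22.

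Markers of cell state moved with the knockdown too. Of the 4 epithelial markers that averaged 10 counts or more in both groups, EPCAM (1.90, edgeR adjusted p = 4.74e-11), CDH1 (1.84, adjusted p = 3.55e-06) and KRT8 (0.56, adjusted p = 2.82e-10) were higher and KRT18 was lower (-0.41, adjusted p = 5.74e-08), where 54.5% of all genes were called. With KRT5, at 16 and 26 counts in knockdown cells against 9 and 10 in heat-shocked controls, the summed level of the 5 markers was 907 to 939 CPM in knockdown cells, against 802 to 818 CPM in heat-shocked controls, with 687 to 736 CPM in unheated controls. EPCAM was at 20.0 and 20.5 CPM in knockdown cells, against 6.23 and 4.66 CPM in heat-shocked controls. Of the 8 mesenchymal and osteoblast markers, which summed to 5170 to 5980 CPM in knockdown cells and 5370 to 5470 CPM in heat-shocked controls, 2 of the 6 that averaged 10 counts or more in both groups were higher (RUNX2 and COL1A1) and 2 lower (SPARC and VIM). The part of these changes in those of MT2A and SLC30A1 was not tested, and in bulk samples fewer cells that express a gene and less RNA per cell cannot be told apart.

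The genes most like MT2A, SLC30A1 and MTF1 over the 6 libraries were sought in 10715 protein-coding genes that averaged 5 CPM or more, by the Euclidean distance between centred log2 profiles. Among the 4 nearest to MT2A were NFKBIA (distance 0.176), CA12 (0.186) and AKR1B1 (0.191). The log2 fold changes of these genes were between 0.12 and 0.21 in heat shock and between -1.52 and -1.28 in the knockdown. Nearest to SLC30A1 were PRR14L (0.0973), GOLGA2 (0.134), MFN1 (0.142) and SHROOM2 (0.154), with values between -0.74 and -0.56 in heat shock and between 1.05 and 1.11 in the knockdown. Nearest to MTF1 were CA2 (0.0889), ZBTB21 (0.102), UBB (0.107) and ACBD3 (0.118). MT1X, MT1G and the scarcer zinc transporters averaged under 5 CPM and were not searched.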

How the data were processed

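RNA-seq counts of 6 U2OS libraries were used. The authors deposited whole-number read counts per Ensembl gene, not normalized, with a gene length, per the file headers. Per the submitters' processing notes, the series used HISAT2 2.2.1, featureCounts 2.0.2, Trim Galore 0.6.7, FastQC 0.11.8, R 4.4.0, DESeq2 1.36.0, MACS2 and SAMtools 1.17, on GRCh38, without roles. Strand setting and multi-mapping rules are not given. Symbols were found for 62666 of 63187 genes. Positions are from RefSeq (GRCh38.p14), matched by symbol.

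All libraries entered 1 edgeR 4.0.16 fit (R 4.3.3; TMM, filterByExpr with minimum count 10, robust quasi-likelihood F test, 3 residual degrees of freedom, common biological coefficient of variation 3.69%). The fit was tried on counts simulated from its own model, with the same spread in every group. That trial cannot show how the fit behaves where the groups differ in spread. DESeq2 1.42.0 and limma 3.58.1 (voom) served as alternatives. Replicates differed by more than sampling noise. Chi-square per gene was 3.45 in the knockdown, 2.62 in heat-shocked controls and 1.53 in unheated controls. The groups thus differed in this measure of spread, while the fit used 1 estimate of the spread for all groups. Profiles used log2(CPM + 0.5). Counts of called genes without those averaging under 10 counts in the lower of the 2 groups were chosen after seeing the data. The 9 genes and the lists were chosen with earlier results of these data known. Named genes were all 9, the called list genes with the largest changes (up to 4 per direction) and the 4 nearest profiles, of which 1 is not reported here. Reads without molecular identifiers are not independent molecules, so the limits given for a count of 0 cover counting error only.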

Additional observations from a re-analysis of the deposited data

How the results depend on the processing

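MT2A, MTF1 and SLC30A1 kept their direction and stayed past the threshold in all 3 comparisons under every alternative run, 135 values in all. These were other scalings, filters and tests, fits of 2 groups, the replicate block and the loss of single libraries, where a lone library is assumed to vary like the other groups. Over the 6 tested genes 257 of 266 values kept their call, 5 lost it and 4 gained it, all for MT1E, MT1G and MT1X, and 0 called values changed sign. The 266 values include MT1G against heat-shocked controls, where its counts were too low for a test. They also include it against 1 unheated library of 7 counts. Of the 5 lost calls, 3 were of MT1G in that knockdown comparison. With a minimum count of 30, MT1G could not be tested. Among the other list genes 117 of 2516 values lost a call and 32 gained one.

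With the DESeq2 Wald test the heat-shock counts of called genes were 4 rather than 7 for copper handling, 4 rather than 7 for glucocorticoid genes and 1 rather than 3 for zinc exporters, TMEM163 included. With no filter 4 copper genes were called, and in the fit of only the 2 groups 5 exporters. With library size alone 7 rather than 3 promoter factors were called, and the summed metallothioneins were no longer called (0.12). When single libraries were left out, the counts ran from 4 to 8 for copper handling, 4 to 7 for glucocorticoid genes and 1 to 3 for exporters. Over all genes the heat-shock count varied too, from 7592 in the main fit to as few as 5161 in an alternative. The list counts given here and above for other fits therefore have no fixed share to be set against. The cause was not tested.

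The replicate numbers were not shown to pair the libraries, since the replicate differences correlated at -0.06 to 0.06 between groups. With the replicate block 3, 5 and 5 of the 6 genes were called, as without it. The knockdown count includes MT1G, which was too low in heat-shocked controls for a test. The summed metallothioneins were at 0.19 in heat shock, -0.96 in the knockdown and -0.76 against unheated controls. In the knockdown 9372 rather than 9425 genes were called. Depth limits MT1G and MT1X, and 2 libraries a group limit every comparison.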
